A study of Homo sapiens with 4 samples.

Results

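Extracellular matrix proteins and their integrin receptors were followed in 4 derivatives of the human cell line PC-3, which was started from a bone metastasis of prostate cancer and is of epithelial origin. The set held 51 genes, chosen by symbol: 17 collagens, 7 laminins, 15 other matrix proteins and 12 integrins, out of 19775 named genes. They were read by 161 of 54613 probe sets, each probe set being a group of short probes against one stretch of a transcript, taken where the platform annotation gives the symbol alone. All 51 members were measured and no filter on low values was applied. A gene's value is the mean of its probe sets, of which 9 members had 1 and no member more than 8. One further probe set, shared by LAMA5 and its antisense transcript LAMA5-AS1, was left out by this rule.

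Each line was measured on 1 Affymetrix array. Short telomeres with basal hTERT, the catalytic subunit of telomerase, are labelled for mock and for mock/cre+. Long telomeres are labelled for LhTERTL, which overexpresses hTERT, and for LhTERTL/cre+, in which hTERT is labelled basal. Cre is a recombinase that cuts out DNA between its target sites; the labels mark it only in the line names, state no treatment, and do not say whether a line is 1 clone or a pool. All 4 lines were grown in dishes to near confluency.

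The deposited log2 values were centred on each probe set's median over the 4 arrays. A value of 1 therefore means 2-fold above that median, and differences between arrays can be read but levels cannot, so neither the epithelial identity of PC-3 nor an absence of fibroblasts could be checked from marker levels. Of 2 TERT probe sets, 1555271_a_at read 3.54 for the overexpressing line and -0.16 to 0.12 for the basal lines, while 207199_at read -0.66 for the overexpressing line. The SD over all probe sets ranged from 0.179 for LhTERTL/cre+ to 0.335 for LhTERTL. Fibroblast markers, 6 of 6 measured, stayed between -0.11 and 0.16 on every array, and leukocyte markers, 3 of 5 measured, between -0.20 and 0.20. Endothelial markers, 5 of 5 measured, ran from -0.76 (in LhTERTL) to 0.44 (in mock/cre+), and prostate cancer epithelial markers, 7 of 8 measured, from -0.74 (in LhTERTL/cre+) to 0.94 (in LhTERTL); their part in the results was not tested. In RNA from whole cultures, fewer cells of a type and less RNA per cell cannot be told apart.

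Collagens are triple helices built from 3 chains. Fibrillar types (I, III, V) bear tension, type VI forms beaded microfibrils, and type IV forms the network of basement membranes together with laminins, nidogens and perlecan. Laminins are trimers of an alpha, a beta and a gamma chain. Integrins, pairs of an alpha and a beta chain, bind these proteins and connect them to the actin cytoskeleton; in the prostate, basal epithelial cells rest on laminin through integrins with the alpha-6 chain. Tumour lines such as PC-3 make part of their own matrix.

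Type IV chains are encoded by pairs of genes that lie head to head, so the DNA between the 2 starts is upstream of both. It is shown here because the values of both gene pairs are set side by side below. The RefSeq promoter table (GRCh38.p14) held windows for 39 of the 51 members. COL4A1 (minus strand, start at 110307157) and COL4A2 (plus strand, start at 110307284) on chromosome 13 are separated by 126 bases, chr13:110307158-110307283, with a GC content of 80.2%. COL4A6 (minus strand, start at 108439458) and COL4A5 (plus strand, start at 108439838) on chromosome X are separated by 379 bases, of which the 121 that both windows hold, chrX:108439588-108439708, are printed, with a GC content of 44.6%. COL4A6 has 2 windows in the table, and this is the one nearest to COL4A5. Both are on the plus strand, 5′ to 3′, and capitals mark matches to CCAAT or GGGCGG on either strand.
COL4A1/COL4A2: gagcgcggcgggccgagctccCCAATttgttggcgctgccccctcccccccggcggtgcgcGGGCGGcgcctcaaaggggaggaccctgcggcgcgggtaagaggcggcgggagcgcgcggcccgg
COL4A6/COL4A5: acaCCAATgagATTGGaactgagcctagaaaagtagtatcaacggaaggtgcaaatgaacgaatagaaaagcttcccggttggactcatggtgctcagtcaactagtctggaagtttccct

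The stretch between COL4A1 and COL4A2 held 1 CCAAT match (bases 22 to 26) and 1 GGGCGG match (bases 62 to 67), counted from its first printed base. The printed part of the stretch between COL4A6 and COL4A5 held 2 CCAAT matches, 1 on each strand (bases 4 to 8 and 12 to 16). It held no GGGCGG match. The motif TATAAA was searched too and had no match in either printed stretch. The bases between COL4A6 and COL4A5 that are not printed, among them those next to both starts, are not covered by these matches. No matches overlapped. In the same number of bases nearest the start, CCAAT was present in 21.1% of all 35116 promoter windows at 126 bases and 20.6% at 121 bases. For GGGCGG these shares were 34.6% and 34.1%. The printed COL4A6/COL4A5 bases lie away from both starts, so the shares at 121 bases are for other positions than theirs. Over the 250 bases before the start, 27 of 39 members held GGGCGG (69.2%, against 42.6% of all windows), 10 held CCAAT (25.6%, against 32.0%) and 5 held TATAAA (12.8%, against 10.7%). Here 1 window was read per member, while the background counts every window, with more than 1 for some genes, so the shares have unlike units. A match is a description of the letters only.

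The first comparison set both long-telomere arrays against both short-telomere arrays. No member was called by limma at an adjusted p under 0.05 (two-sided, Benjamini-Hochberg over 19775 genes), where 0% of all genes were called, and the adjusted p of every member was 1. At an unadjusted p under 0.05 (limma) 2 members were higher and none lower, against 89 and 67 of all genes. The groups did not overlap for 9 members. In 6 both long arrays lay above both short arrays, against 11.4% of all genes: LAMA4, LAMB3, LAMC1, NID2, FN1 and ITGB3. In 3 both lay below, against 11.7%: VCAN, ITGA2 and ITGB8. Set against 51 members, the 6 were near their background share and the 3 were under theirs, and neither count was tested. None of the 17 collagens was among the 9. The median difference was 0.03 over the members and -0.01 over all genes. Because 2 against 2 arrays cannot give an exact permutation p under 0.333 (two-sided), single members were not tested that way.

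**Figure D1:**
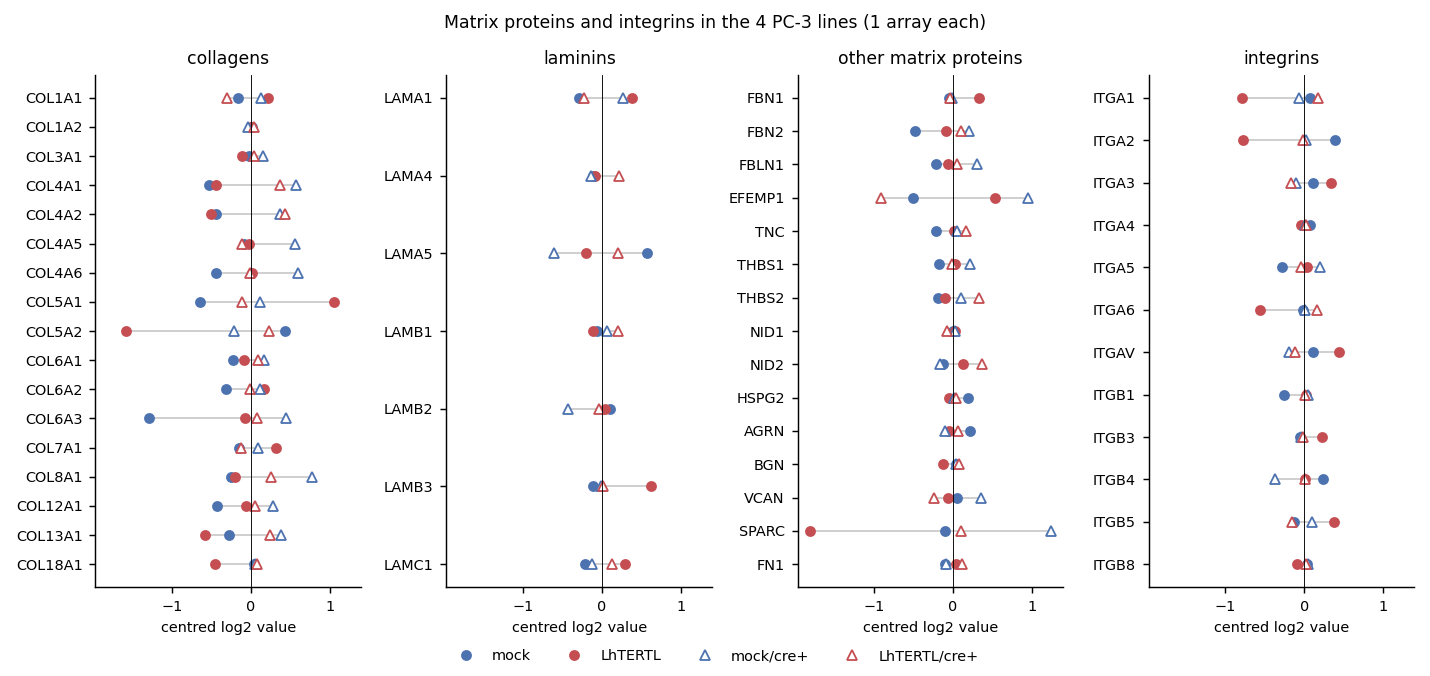
Centred log2 value (x axis) of each of the 51 members (rows) on the 4 arrays, by class. Circles are lines without Cre and open triangles lines with Cre, blue is short and red long telomeres, and the grey line joins the lowest and highest array. SPARC and COL5A2 in LhTERTL and COL6A3 in mock are the values farthest below 0.

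Single lines were then compared in pairs. At least 2-fold apart in any of 4 array pairs were 10 members (COL4A1, COL4A6, COL5A1, COL5A2, COL6A3, COL8A1, LAMA5, EFEMP1, SPARC and ITGA2) of the 51, where 6.07% of all genes were. The pairs were LhTERTL minus mock, LhTERTL/cre+ minus mock/cre+, mock/cre+ minus mock and LhTERTL/cre+ minus LhTERTL; each is 1 array against 1 and has no test, and pairs that share an array are not independent. The background includes transcripts that PC-3 may not express, which the centred values cannot set apart. In 12 further members at least 1 probe set was 2-fold apart in a pair while the mean of the gene's probe sets was not. These were COL1A1, COL4A2, COL6A1, COL12A1, COL13A1, LAMA1, LAMA4, FBN2, FBLN1, THBS1, ITGA1 and ITGB4. A gene with more probe sets meets this more easily. The share of all genes that meet it was not counted, so the 12 have no background.

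In LhTERTL minus mock, 3 members were at least 2-fold higher (COL5A1, COL6A3 and EFEMP1, against 2.24% of all genes) and 3 at least 2-fold lower (COL5A2, SPARC and ITGA2, against 0.86%). In LhTERTL/cre+ minus mock/cre+ no member was 2-fold higher (0.394% of all genes) and 2 were 2-fold lower (EFEMP1 and SPARC, against 1.18%). In mock/cre+ minus mock 6 were 2-fold higher (COL4A1, COL4A6, COL6A3, COL8A1, EFEMP1 and SPARC, against 2.02%) and 1 lower (LAMA5, against 0.647%). In LhTERTL/cre+ minus LhTERTL 2 were 2-fold higher (COL5A2 and SPARC, against 1.52%) and 2 lower (COL5A1 and EFEMP1, against 2.29%). As a mean, SPARC was the 1 member that passed 2-fold with the same sign in each of the 2 pairs matched by Cre status. Its probe set 200665_s_at passed in both (-2.65 without Cre and -1.50 with Cre), but 212667_at passed in neither (-0.78 in each). The share of all genes that did so was not counted.

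**Figure D2:**
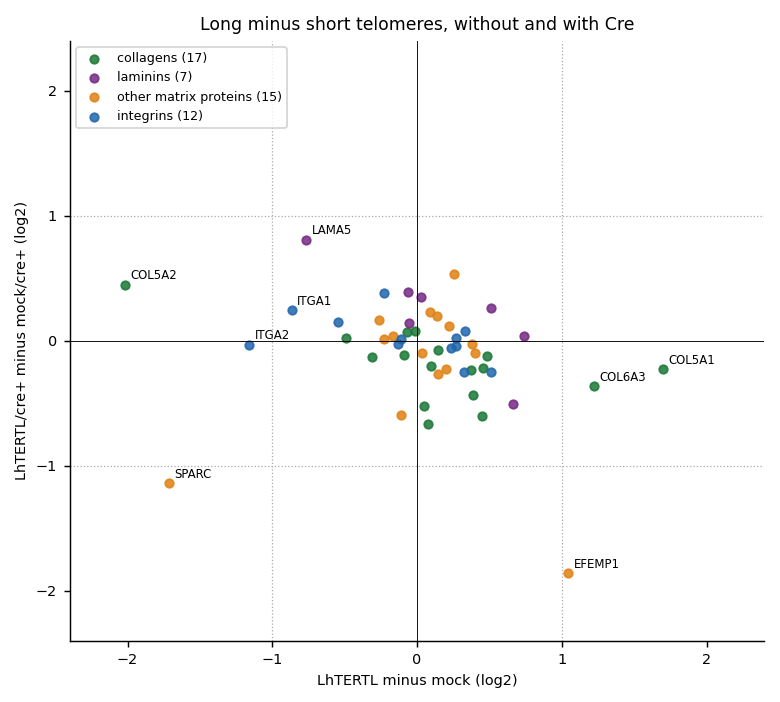
Long minus short log2 difference of each member in the pair without Cre (x axis) and in the pair with Cre (y axis), coloured by class, with dotted lines at 2-fold. SPARC lies below -1 on both axes, EFEMP1 is at 1.04 and -1.86, and COL5A1, COL5A2 and COL6A3 have their larger difference on the x axis.

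Among fibrillar collagens, the 2 chains of type V stood far apart in LhTERTL. COL5A1, whose chain limits the diameter of collagen fibrils, stood at -0.65 in mock, 1.05 in LhTERTL, 0.12 in mock/cre+ and -0.12 in LhTERTL/cre+. COL5A2, which encodes its usual partner chain, stood at 0.43, -1.58, -0.22 and 0.23 in the same order. LhTERTL was thus the highest of the 4 arrays for COL5A1 and the lowest for COL5A2, and the gap between the genes on that array was 2.64. All 3 probe sets of COL5A1 put LhTERTL highest and both probe sets of COL5A2 put it lowest. Long minus short was 0.74 ± 0.49 for COL5A1 and -0.78 ± 0.67 for COL5A2 (moderated SE, n = 2 per group), with the groups overlapping for both. Without LhTERTL these differences were 0.15 and 0.12. For COL5A1 it was 0.35 without mock, 1.12 without mock/cre+ and 1.32 without LhTERTL/cre+.

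As means, the chains of type I stayed closer together. COL1A1 stood at -0.17 in mock, 0.22 in LhTERTL, 0.13 in mock/cre+ and -0.31 in LhTERTL/cre+. Its 5 probe sets disagreed. Probe set 1556499_s_at stood at -0.55, 0.68, 0.55 and -0.93 in that order and was 2-fold apart in each of the 4 pairs. In 202310_s_at and 202311_s_at the pair differences had the same signs but were smaller. Probe set 217430_x_at stayed between -0.03 and 0.04, and 202312_s_at stood at 0.09, -0.06, -0.40 and 0.06. COL1A2 stood between -0.04 and 0.04 on all 4 arrays. COL3A1, the chain of type III, stayed between -0.11 and 0.15.

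For basement membrane collagen IV, COL4A1 and COL4A2 had almost the same profile. COL4A1 stood at -0.54 in mock, -0.44 in LhTERTL, 0.57 in mock/cre+ and 0.37 in LhTERTL/cre+. COL4A2 stood at -0.44, -0.51, 0.37 and 0.43 in that order. Both lines with Cre lay above both lines without, and the 2 genes were never more than 0.21 apart on an array. Mock/cre+ minus mock was 1.11 for COL4A1 and 0.81 for COL4A2, and LhTERTL/cre+ minus LhTERTL was 0.81 and 0.94. By telomere length the differences were -0.05 ± 0.49 and 0.00 ± 0.44 (SE, n = 2 per group).

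COL4A5 and COL4A6, chains of a type IV network found in some basement membranes, were highest on 1 array. COL4A5 stood at -0.09 in mock, -0.02 in LhTERTL, 0.56 in mock/cre+ and -0.11 in LhTERTL/cre+, and COL4A6 stood at -0.44, 0.01, 0.60 and -0.01. The line mock/cre+ was the high one for both, and the genes lay at most 0.35 apart, on mock. LhTERTL/cre+ minus LhTERTL was -0.09 for COL4A5 and -0.02 for COL4A6. Long minus short was -0.30 ± 0.25 for COL4A5 and -0.08 ± 0.37 for COL4A6 (SE, n = 2 per group). Whether the profiles of the 2 gene pairs differ was not tested.

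COL6A3, the large chain of type VI microfibrils, stood at -1.30 in mock, while LhTERTL read -0.07, LhTERTL/cre+ 0.07 and mock/cre+ 0.44. Mock was the low array, and it was also the lowest for COL6A1 (-0.23) and COL6A2 (-0.32), the other chains of type VI. COL6A3 was read by 1 probe set. COL8A1, a short-chain collagen of vessel walls and the cornea, stood at -0.25, -0.20, 0.78 and 0.25 in mock, LhTERTL, mock/cre+ and LhTERTL/cre+. Its mock/cre+ value came from 1 of 3 probe sets, at 2.18, while the other 2 stood at 0.18 and -0.03. The remaining collagens COL7A1, COL12A1, COL13A1 and COL18A1 stayed between -0.59 and 0.38, and none was 2-fold apart in a pair as a mean.

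Long minus short was above 0 for 7 of 7 laminin genes (48.1% of all genes), from 0.02 to 0.39, with a median of 0.16 (all genes, -0.01). In the single pairs it was above 0 for 4 of 7 without Cre and 6 of 7 with Cre. LAMA4, LAMB3 and LAMC1 were above 0 in both pairs, and LAMA1, LAMA5, LAMB1 and LAMB2 differed in sign between them. LAMC1, the gamma chain of most laminins, read -0.22 for mock and -0.13 for mock/cre+, and 0.29 for LhTERTL and 0.13 for LhTERTL/cre+. LAMB3, a chain of laminin-332 in the anchorage of epithelia, stood at -0.12, -0.02, 0.62 and 0.02 in that order. For both genes the long arrays lay above the short ones, for LAMB3 by 0.03 in the pair with Cre. Long minus short was 0.38 ± 0.13 for LAMC1 (unadjusted p = 0.0350, limma) and 0.39 ± 0.24 for LAMB3 (SE, n = 2 per group). For LAMB3 it was 0.08 without LhTERTL and 0.69 without LhTERTL/cre+.

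LAMA4, an alpha chain of vessel and muscle basement membranes, stood at -0.12 in mock, -0.13 in mock/cre+, -0.09 in LhTERTL and 0.21 in LhTERTL/cre+, with 0.19 ± 0.15 for long minus short, 0.03 without LhTERTL/cre+ and 0.34 without LhTERTL. Its 5 probe sets disagreed. Probe set 202202_s_at, the 1 member probe set in the authors' deposited list of higher probe sets, stood at -0.31, -0.53, 0.31 and 0.57 in the same order, and 210089_s_at at -0.23, 0.23, -0.78 and 0.37. Long minus short ran from -0.20, for the probe set of highest SD, to 0.85 over the 5. LAMA5, the main alpha chain of epithelial basement membranes, had 1 probe set and stood at 0.57 in mock, -0.61 in mock/cre+, -0.20 in LhTERTL and 0.20 in LhTERTL/cre+. The short arrays were its highest and lowest, and its pair differences by telomere length were -0.77 without Cre and 0.81 with Cre. The probe set it shares with LAMA5-AS1 stood at 0.29, -0.22, -0.08 and 0.08. As means, LAMA1, LAMB1 and LAMB2 stayed between -0.43 and 0.38. One of the 2 LAMA1 probe sets, 227048_at, stood at -0.66 in mock, 0.93 in LhTERTL, 0.63 in mock/cre+ and -0.63 in LhTERTL/cre+, and was 2-fold apart in each of the 4 pairs, while 222346_at stayed between -0.17 and 0.16.

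Of the other matrix proteins, SPARC, a secreted collagen-binding glycoprotein of remodelling tissue, had the widest range. It stood at -0.11 in mock, -1.82 in LhTERTL, 1.25 in mock/cre+ and 0.11 in LhTERTL/cre+. In this mean LhTERTL was lowest and mock/cre+ highest. LhTERTL/cre+ lay above mock, so for the mean the telomere groups overlapped while the Cre groups did not. Long minus short was -1.43 ± 0.82 (SE, n = 2 per group), at -0.47 without LhTERTL, -0.75 without mock/cre+, -2.11 without mock and -2.39 without LhTERTL/cre+. Its probe sets shared the lowest and highest array but differed in size and in the order of the middle arrays. Probe set 212667_at ran from -1.02 to 1.02 and had the order of the mean. Probe set 200665_s_at ran from -2.63 to 1.47, with mock at 0.03 and LhTERTL/cre+ at -0.03. In 200665_s_at both long arrays thus lay below both short ones, and the Cre groups overlapped. It is the 1 member probe set in the authors' deposited list of lower probe sets.

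EFEMP1, or fibulin-3, a glycoprotein of elastic fibres and basement membranes, stood at -0.51 in mock, 0.53 in LhTERTL, 0.95 in mock/cre+ and -0.91 in LhTERTL/cre+. Each telomere group held 1 high and 1 low array, as did each Cre group, and long minus short was -0.41 ± 0.71 (SE, n = 2 per group). The third of its 3 probe sets, 228421_s_at, stayed between -0.10 and 0.07, so the mean understates the spread of the other 2, which ran from -1.73 to 1.60.

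NID2, a nidogen that links laminin to collagen IV, stood at -0.13 in mock, -0.17 in mock/cre+, 0.13 in LhTERTL and 0.36 in LhTERTL/cre+, with long minus short at 0.39 ± 0.14 (unadjusted p = 0.0412, limma). Its long arrays lay above its short ones. FN1, fibronectin, the main adhesive glycoprotein of provisional matrix, also had both long arrays above both short ones, over a range of 0.21 from -0.10 in mock to 0.11 in LhTERTL/cre+. VCAN, the proteoglycan versican, stood at 0.05 in mock, 0.36 in mock/cre+, -0.07 in LhTERTL and -0.24 in LhTERTL/cre+, with long below short. The remaining 10 stayed between -0.49 and 0.34: FBN1 and FBN2 (fibrillins), FBLN1 (fibulin-1), TNC (tenascin-C), THBS1 and THBS2 (thrombospondins), NID1, HSPG2 (perlecan), AGRN (agrin) and BGN (biglycan). None of these means was 2-fold apart in a pair.

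**Figure D3:**
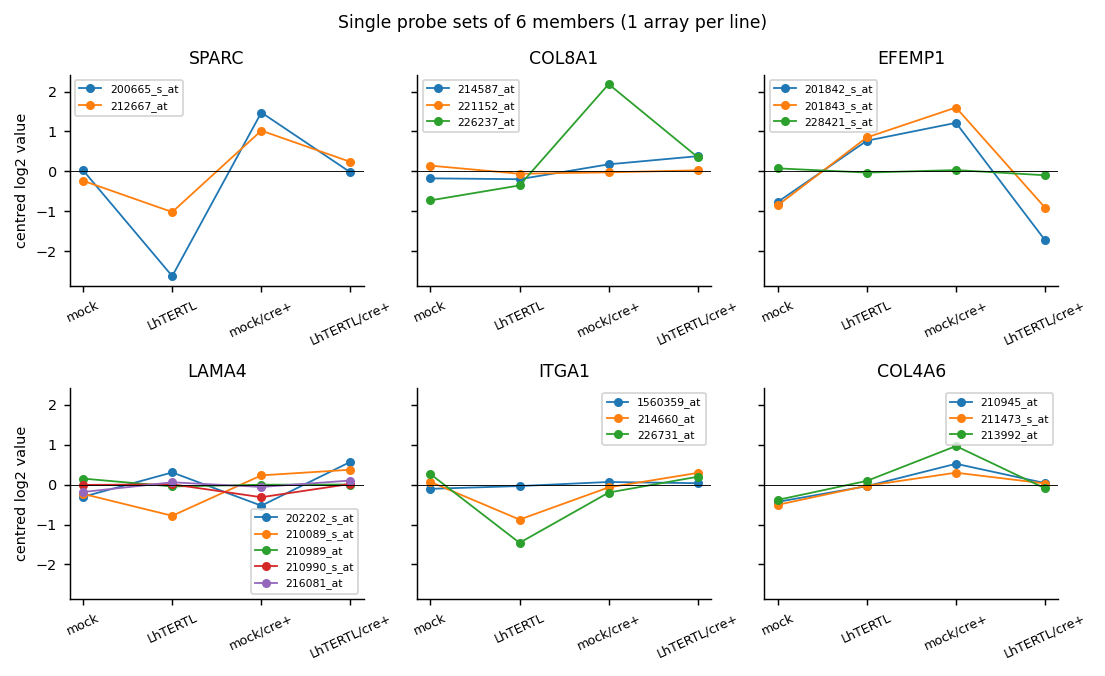
Centred log2 value (y axis) of every probe set of 6 members on the 4 arrays (x axis); lines only join values of one probe set. Both SPARC probe sets are lowest in LhTERTL and highest in mock/cre+, whereas 1 of 3 probe sets carries the COL8A1 value and 1 of 3 stays flat for EFEMP1 and for ITGA1.

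Among the receptors, the collagen-binding alpha chains ITGA1 and ITGA2 were lowest in LhTERTL. ITGA2 stood at 0.39 in mock, -0.77 in LhTERTL, 0.02 in mock/cre+ and -0.02 in LhTERTL/cre+, and both of its probe sets put mock highest and LhTERTL lowest. ITGA1 stood at 0.08, -0.79, -0.07 and 0.18; probe sets 226731_at (-1.46 in LhTERTL) and 214660_at (-0.88) carried this value and 1560359_at (-0.04) did not. For the ITGA2 mean both long arrays lay below both short ones, by 0.03 in the pair with Cre. This held in probe set 205032_at but not in 227314_at, where LhTERTL/cre+ (0.02) lay above mock/cre+ (-0.02). Long minus short was -0.60 ± 0.31 for ITGA2 and -0.31 ± 0.35 for ITGA1 (SE, n = 2 per group). Without LhTERTL these were -0.22 and 0.17, and without LhTERTL/cre+ they were -0.97 and -0.79.

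ITGA6, the alpha chain of the laminin receptors, stood at -0.01 in mock, -0.56 in LhTERTL, 0.01 in mock/cre+ and 0.16 in LhTERTL/cre+. ITGB4, its partner in hemidesmosomes, stood at 0.24, 0.01, -0.37 and 0.01. As means, the low array was therefore LhTERTL for the alpha chain and mock/cre+ for the beta chain. The ITGB4 probe sets disagreed. Lowest in mock/cre+ were 204989_s_at (-0.78), 204990_s_at (-0.73) and 214292_at (-0.26). Lowest in LhTERTL/cre+ were 211905_s_at (-0.13) and 230704_s_at (-0.05). ITGAV, an alpha chain of receptors for vitronectin and fibronectin, was highest in LhTERTL, at 0.44, followed by mock at 0.11, LhTERTL/cre+ at -0.11 and mock/cre+ at -0.19. ITGB1, the beta chain shared by most of these receptors, stayed between -0.25 in mock and 0.05 in mock/cre+ over 7 probe sets. ITGA3, ITGA4, ITGA5, ITGB3, ITGB5 and ITGB8 stayed between -0.28 and 0.38.

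The next comparison set LhTERTL, with hTERT overexpressed, against the 3 arrays with basal hTERT, the lone array being assumed to vary like the others. No member was called (limma, adjusted p under 0.05), as were 0% of all genes, and at an unadjusted p under 0.05 (limma) 5 members were higher and 6 lower, against 1250 and 1293 of all genes. The difference was 1.27 ± 0.32 for COL5A1 (SE, n = 1 against 3, limma adjusted p = 0.237) and -1.73 ± 0.28 for COL5A2 (limma adjusted p = 0.144). It was -2.24 ± 0.56 for SPARC (limma adjusted p = 0.238), -0.85 ± 0.15 for ITGA1 (limma adjusted p = 0.161) and -0.90 ± 0.20 for ITGA2 (limma adjusted p = 0.216). ITGA6 differed by -0.61 ± 0.13 and LAMB3 by 0.66 ± 0.13. Without mock/cre+ the difference was -1.91 for COL5A2, -1.82 for SPARC and -0.92 for ITGA1. For the same genes it was -1.59, -2.50 and -0.84 without mock, and -1.69, -2.39 and -0.79 without LhTERTL/cre+. This contrast takes in every way in which LhTERTL differs from the other lines, and hTERT cannot be told apart from the line.

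The lines with Cre were compared with those without after it had been seen that COL4A1 and COL4A2 differed by Cre status. Among the long-telomere lines, LhTERTL overexpresses hTERT and LhTERTL/cre+ is labelled basal. Cre status and hTERT therefore cannot be told apart between these lines, nor can either be told apart from the line itself. Both Cre arrays lay above both others for 17 of 51 members (17.4% of all genes) and below for 4 (20.1% of all genes). The 17 comprised 9 of 17 collagens, 6 of 15 other matrix proteins, 1 laminin and 1 integrin. No member was called (limma, adjusted p under 0.05; 0% of all genes), and at an unadjusted p under 0.05 (limma) 5 members were higher and 2 lower, against 738 and 505 of all genes. Cre minus no Cre was 0.96 ± 0.13 for COL4A1 and 0.87 ± 0.10 for COL4A2 (SE, n = 2 per group, limma adjusted p = 0.772 for each). It was 0.74 ± 0.20 for COL8A1, 0.74 ± 0.15 for COL13A1, a transmembrane collagen, and 1.64 ± 0.71 for SPARC (limma adjusted p = 0.772 for each), and 0.94 ± 0.44 for COL6A3 (limma adjusted p = 0.774). Without mock the COL6A3 difference was 0.33, and without LhTERTL it was 1.55. For SPARC it was 0.78 without LhTERTL, 1.07 without mock/cre+ and 2.50 without mock. For COL8A1 it was 0.48 without mock/cre+, 0.45 with the median of its probe sets and 1.81 when only its most variable probe set was used, which gave 1.21 for COL13A1.

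**Figure D4:**
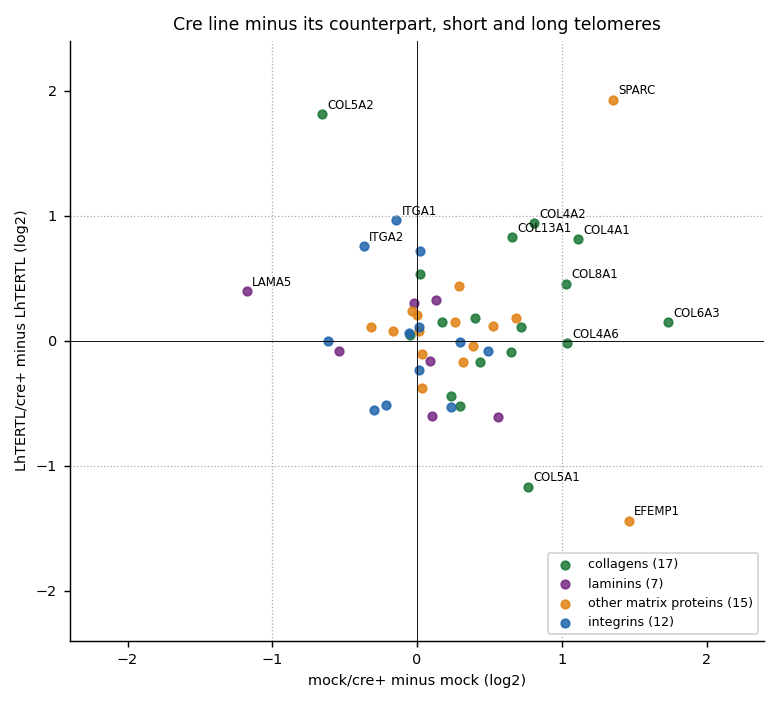
Log2 difference of each member between mock/cre+ and mock (x axis) and between LhTERTL/cre+ and LhTERTL (y axis), coloured by class, with dotted lines at 2-fold. SPARC, COL4A1 and COL4A2 lie in the upper right, COL6A3 and COL4A6 along the x axis, and COL5A1 and EFEMP1 in the lower right.

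By class, the 17 collagens of the set stood apart most in mock/cre+ minus mock. The difference was above 0 for 15 of 17 collagens, with a median of 0.65 and quartiles of 0.24 and 0.81, against 44.7% of all genes and a median of -0.03. In LhTERTL/cre+ minus LhTERTL it was above 0 for 11 of 17, with a median of 0.15 (all genes, 51.3% and 0.01). Mock was the lowest of the 4 arrays for 9 of 17 collagens (52.9%, against 20.2% of all genes). The line mock/cre+ was the highest for 9 (52.9%, against 24.1% of all genes). Other matrix proteins had medians of 0.26 and 0.11 in these 2 pairs, laminins 0.09 and -0.08, and integrins -0.02 and -0.01. In the pairs by telomere length the collagen medians were 0.095 in LhTERTL minus mock and -0.20 in LhTERTL/cre+ minus mock/cre+, and the laminin medians 0.025 and 0.26. The pairs share arrays, so a low mock value enters LhTERTL minus mock and mock/cre+ minus mock alike. These counts are descriptions without a test. They cover members only, which were chosen with earlier results of these data known. Collagens outside the set, such as COL15A1 (0.13 in mock/cre+ minus mock) and COL27A1 (0.10), are not in them.

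**Figure D5:**
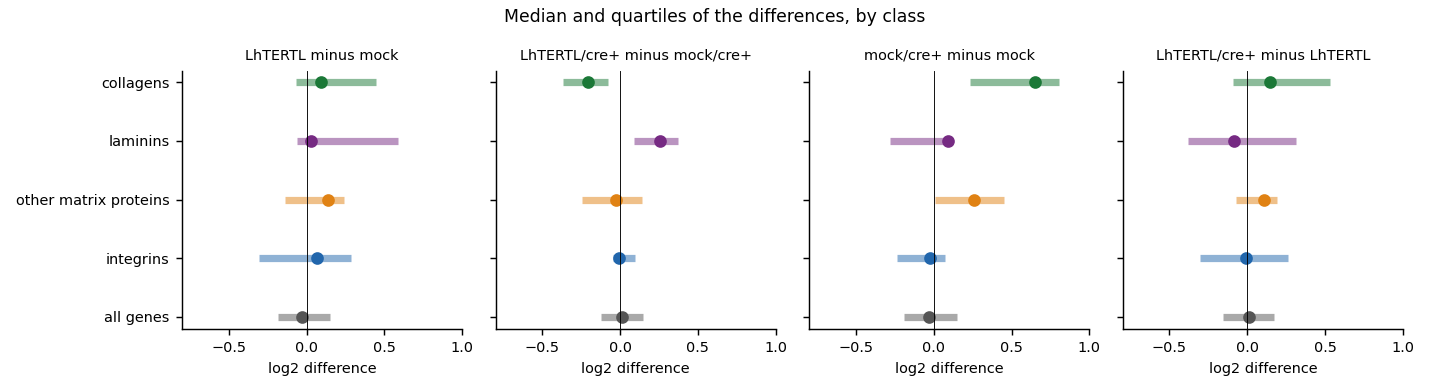
Median (point) and quartiles (bar) of the log2 differences of each class and of all genes (rows) in the 4 array pairs. The collagen median in mock/cre+ minus mock, at 0.65, is the one farthest from that of all genes.

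Genes that process, cut or anchor matrix proteins were read from 5 lists. None of their measured members was called by telomere length (limma, adjusted p = 1 for each), and the medians of long minus short were 0.02 for 25 collagen processing genes, 0.03 for 26 proteases and inhibitors, -0.00 for 23 focal adhesion genes, -0.04 for 46 other matrix and receptor genes and -0.10 for 17 genes of TGF-beta signalling and matricellular proteins. In mock/cre+ minus mock their medians were 0.08, 0.08, 0.06, 0.03 and 0.09, where the member collagens had 0.65.

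SERPINH1, the chaperone of collagen folding known as HSP47, stood at -0.74 in mock, 1.02 in LhTERTL, 0.44 in mock/cre+ and -0.44 in LhTERTL/cre+. It had the same order of arrays as COL5A1. P4HB, the protein disulfide isomerase subunit of prolyl 4-hydroxylase, and PPIB, a prolyl isomerase of the endoplasmic reticulum, stood at 0.50 and 0.60 in LhTERTL and -0.49 and -0.70 in mock/cre+. P3H3, a prolyl 3-hydroxylase family member, stood between -0.29 in LhTERTL and 0.37 in mock.

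TIMP1, an inhibitor of matrix metalloproteinases, and MMP10, stromelysin-2, were highest in LhTERTL, both at 1.67, and stood between -0.61 and 0.15 on the other arrays. ADAM17, a sheddase, stood at 0.85 in LhTERTL and -0.63 in mock/cre+, and CTSB, the lysosomal protease cathepsin B, at -1.06 in LhTERTL and between -0.06 and 0.15 elsewhere. SDC2, the heparan sulfate proteoglycan syndecan-2, stood at -1.23 in mock, 1.13 in LhTERTL, 0.56 in mock/cre+ and -0.56 in LhTERTL/cre+, again in the order of COL5A1. COL15A1, a basement membrane zone collagen, stood at 1.16 in LhTERTL and between -0.06 and 0.06 elsewhere. CD44, the hyaluronan receptor, and COL27A1, a fibrillar collagen, were lowest in LhTERTL, at -0.53 and -0.25.

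CCN2, a matricellular protein induced by TGF-beta, stood at -0.29 in mock, -1.02 in LhTERTL, 1.05 in mock/cre+ and 0.29 in LhTERTL/cre+. This was the same order of arrays as the SPARC mean. TGFBR3, betaglycan, was highest in mock/cre+ at 0.85, SMAD3, a signal transducer of TGF-beta, was lowest in LhTERTL at -0.63, and TGFBR1, its type I receptor, was highest in LhTERTL at 0.37. The focal adhesion genes had no difference of 2-fold in any of the 4 pairs. Of these, FERMT1 and FERMT2 (kindlins, which activate integrins) differed by -0.34 ± 0.23 and 0.25 ± 0.34, ACTN4 (alpha-actinin-4) by -0.27 ± 0.14 and BCAR1, an adhesion scaffold, by -0.23 ± 0.12 (long minus short with its SE).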

How the data were processed

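The authors deposited log2 values from Affymetrix arrays, made with RMA per the submitters' processing notes, which name no software version here. The deposited table was centred: no probe set's median over the 4 arrays was farther from 0 than 5e-07, so a planned filter on levels could not be run. Array medians lay between -0.01 and 0.01. Of the authors' deposited lists only probe set names were used, since for all lower probe sets listed the values of LhTERTL and mock/cre+ were exchanged relative to the main table (tolerance 1e-05).

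The platform annotation gave 41091 probe sets 1 symbol and 1801 several, and 11721 are unnamed here; 62 control probe sets were left out. Contrasts were fitted on gene values with lmFit and eBayes, without a trend, in limma 3.58.1 under R 4.3.3. Tests were two-sided and adjusted by Benjamini-Hochberg over 19775 genes, and the script was tested on simulated data. Array pairs are 1 against 1 and were not tested. Tables and figures used Python 3.11.15, numpy 2.4.6, pandas 2.3.3 and matplotlib 3.10.9. The number of arrays limits the precision. The labels do not speak of separate cultures, so p-values measure the spread between these 4 samples, which may be technical.

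Members and lists were chosen with earlier results of these data known. By rule, values are given array by array for members 2-fold apart in any pair, the 3 with the largest long minus short difference in each class, and partner chains (23 members in all), and for up to 4 genes of each list. The others with array values, the members given for hTERT and for Cre, and the Cre comparison itself were chosen after their values were seen.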

Additional observations from a re-analysis of the deposited data

Results flagged for a closer look

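In 2 members the difference by telomere length went opposite ways in the pair without Cre and the pair with Cre, by at least 1.5-fold each way. EFEMP1 stood at 1.04 and -1.86, a gap of 2.90 between the pairs, and LAMA5 at -0.77 and 0.81, a gap of -1.57. Each pair is 1 array against 1, so the gap was not tested. LAMA5 was read by 1 probe set, and 1 of the 3 EFEMP1 probe sets did not share the pattern.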

How the results depend on the processing

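Genes called stayed at 0 in all 3 comparisons with other gene values (the probe set of highest SD, or the median of the probe sets), recentred arrays, a trend in eBayes and single probe sets. The labels carry no replicate numbers; Cre status, which pairs the lines, as a block also left 0 genes called by telomere length, as did the 3-group fit for hTERT. With each array left out, the count ran from 0 to 485 for hTERT (485 without mock/cre+) and stayed at 0 by telomere length and by Cre.

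With the probe set of highest SD, the integrin median of long minus short was 0.029, and 3 members had both long arrays above both short ones in place of 6. The Cre medians became 0.19 for all members, 0.44 for collagens, 0.017 for other matrix proteins and -0.0010 for integrins, from 0.13, 0.29, 0.10 and 0.03. Members past 2-fold became 6 higher in LhTERTL minus mock, 6 lower in LhTERTL/cre+ minus mock/cre+, 13 higher and 2 lower in mock/cre+ minus mock, and 6 higher and 4 lower in LhTERTL/cre+ minus LhTERTL. At 1.5-fold the higher and lower counts in these pairs were 5 and 5, 1 and 5, 12 and 3, and 8 and 4. Long minus short turned sign to -0.0060 for COL1A2, -0.22 for COL4A2 and -0.20 for LAMA4 with the probe set of highest SD, and to 0.078 for COL8A1 with the median of the probe sets.

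With each array left out, medians of long minus short ran from -0.064 to 0.18 for all members, -0.29 to 0.24 for collagens, 0.18 to 0.34 for laminins, -0.048 to 0.18 for other matrix proteins and -0.047 to 0.078 for integrins. Members with long arrays all above short ones numbered 12 to 24 and below 9 to 19, fewer arrays making this easier to meet. Cre medians ran from 0.070 to 0.16 for all members, 0.24 to 0.37 for collagens and -0.28 to 0.16 for laminins. They ran from 0.070 to 0.23 for other matrix proteins and -0.013 to 0.036 for integrins, with 22 to 30 members above and 9 to 15 below. Long minus short crossed 0 for COL1A1 (-0.29 to 0.24), COL4A1 (-0.61 to 0.50), COL4A2 (-0.47 to 0.47), COL4A5 (-0.62 to 0.027), COL4A6 (-0.60 to 0.44), COL5A2 (-1.69 to 0.12), COL6A3 (-0.44 to 1.30), COL8A1 (-0.75 to 0.28), LAMA5 (-0.57 to 0.61), EFEMP1 (-1.14 to 0.32), ITGA1 (-0.79 to 0.17), ITGA6 (-0.56 to 0.16), ITGAV (-0.072 to 0.48), ITGB1 (-0.036 to 0.26) and ITGB4 (-0.23 to 0.38). In all, 17 of the 23 members chosen by rule, several of them near 0 to begin with, turned sign by telomere length under some alternative. The cause was not tested.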
